A study of Mus musculus with 6 samples.

Results

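The genes described here encode proteins of the extracellular matrix and the enzymes that cut it: collagens, laminins, thrombospondins, and the ADAMTS proteases with the ADAMTS-like proteins. They were chosen by name from the deposited table of gene expression in mouse brain tissue: a collagen alpha chain symbol of the form Col, digits, a, digits; a laminin chain symbol of the form Lam, then a, b or c and a digit; or a symbol that starts with Adamts or Thbs. The rule took 59 of 13170 genes, namely 30 collagens, 10 laminins, 4 thrombospondins and 15 genes of the ADAMTS group. Of these, 41 had a mean of at least 1 FPKM (fragments mapped to a gene, scaled to its transcript length and to the size of the library) over the 6 libraries and 18 had less. Poly(A) RNA from C57 mice was sequenced in 3 libraries of a group labelled as high in sexual motivation (high 1 to high 3) and 3 libraries of a group labelled as low (low 1 to low 3). No allele, treatment, age or time is given in the labels for either group, and the title of the series names adult male mice. The labels disagree on the tissue: medial amygdala in the title, MeA in the design text, PrL in the protocol for extraction and brain as the tissue label. The sources used here give neither the way motivation was scored nor the number of animals behind each library, so each p-value rests on the spread among these libraries alone, and that spread may be technical.

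Collagens are trimers of alpha chains wound into a triple helix. Fibrillar collagens form fibres, fibril-associated collagens sit on the surface of fibres, collagen IV forms the sheet of the basement membrane together with laminins, and some collagens span the plasma membrane. Laminins are cross-shaped trimers of an alpha, a beta and a gamma chain, and in brain they line blood vessels and the surface under the meninges. Thrombospondins are matrix proteins that cells secrete, and those made by astrocytes are known for promoting the formation of synapses. ADAMTS proteases trim procollagen or cut the proteoglycans of the brain matrix, while ADAMTS-like proteins lack the protease domain. In brain, much of the collagen mRNA comes from fibroblasts of the meninges and from vessel cells, and some chains are made by neurons, astrocytes or the choroid plexus.

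Libraries differed in traces of neighbouring tissue, and these values stand before the results because several members share their pattern. Of 18 markers of leptomeninges and fibroblasts in the table (22 listed), 17 were highest in high 1. Their summed level was 165.6, 39.7 and 88.9 FPKM over the high group and 30.3, 58.1 and 50.2 over the low group. Of 17 listed markers of choroid plexus epithelium, 16 were highest in low 3, with summed levels of 103, 137 and 63.6 FPKM in high 1 to 3 and 1476, 106 and 4620 in low 1 to 3. Slc13a4 is in both lists and both sums, and is the choroid plexus marker that was highest in high 1. No marker of either type was at 0. All 8 ependymal markers had lower means in the high group, with sums of 11.9, 14.7 and 13.5 FPKM in high 1 to 3 and 29.5, 21.8 and 43.7 in low 1 to 3, which did not overlap. All 5 blood markers were lower too, with sums of 186, 114 and 121.1 FPKM against 253.2, 132.8 and 225.3, which overlapped. The 14 neuronal markers summed to between 1731 and 2099 FPKM in the 6 libraries. They are shared by brain regions, so they do not tell which of the labelled regions was sampled. High 2 was the extreme library of principal component 2, with 25.5% of the variance (−20.2 against 2.28 to 5.43 in the other libraries). Absolute depth is unknown, and relative depth, read from genes with low values, lay between 0.954 and 1.33 of that of high 1. Fewer cells of a type and less RNA per cell cannot be told apart in tissue libraries such as these.

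None of the 41 tested members passed at an adjusted p under 0.05 (limma with Benjamini-Hochberg adjustment over 12026 genes), where 0 genes in all were called (0%). At an unadjusted p under 0.05 by limma there were 10 members, or 24.4% of those tested, against 8.39% of all tested genes. Of the 10, 8 were higher in the high group, the direction of 4.12% of all tested genes (Col16a1, Adamts2, Col5a2, Col11a2, Col11a1, Col9a2, Adamts10 and Col26a1) and 2 were lower, that of 4.27% (Thbs4 and Col9a3). The members were all measured in the same 6 libraries and are not independent of each other, so these shares are a description. The count was 6 without high 1 (14.6% against 7.09% of all genes), 7 without high 3 (17.1% against 8.12%), 7 without low 1 (17.1% against 4.95%) and 13 without high 2 (31.7% against 11%). With low 1 and low 3 both left out, an alternative chosen after seeing the data, it was 4 (9.76% against 3%). Adamts2, Col11a2, Col16a1, Col5a2, Col9a3 and Thbs4 made up the 6 that stayed under 0.05 whichever library was left out.

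The 3 high values lay above all 3 low values in 10 members (7.17% of all genes in the table) and below them in 5 (7.59%). This makes 15 of 59 members, or 25.4%, against 14.8% of all genes, and 10 of the 15 were among the 41 tested members. Over all 59 members, 34 were higher and 25 were lower in the high group, against 50.2% of all genes higher. Of the 41 tested members 21 were higher, against 50.1% of all tested genes. Over the 59 members the median log2 difference was 0.06 where that of all genes was 0.00033. Each log2 difference given here is the high group minus the low group in log2(FPKM + 1), a scale that understates differences where FPKM is low. Members under the filter take their differences from a fit without the filter, and are called unfiltered. Thbs4, Col8a1, Col8a2 and Thbs1 passed the filter although their mean in the high group was under 1. Of these, Thbs4 is counted in the 10 members with an unadjusted p under 0.05 by limma and in the 6 that stayed there. As a set the members were expressed at a low level, with a median of 1.57 FPKM against 6.27 for all genes, and 9 of them lay above the median gene.

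**Figure D1:**
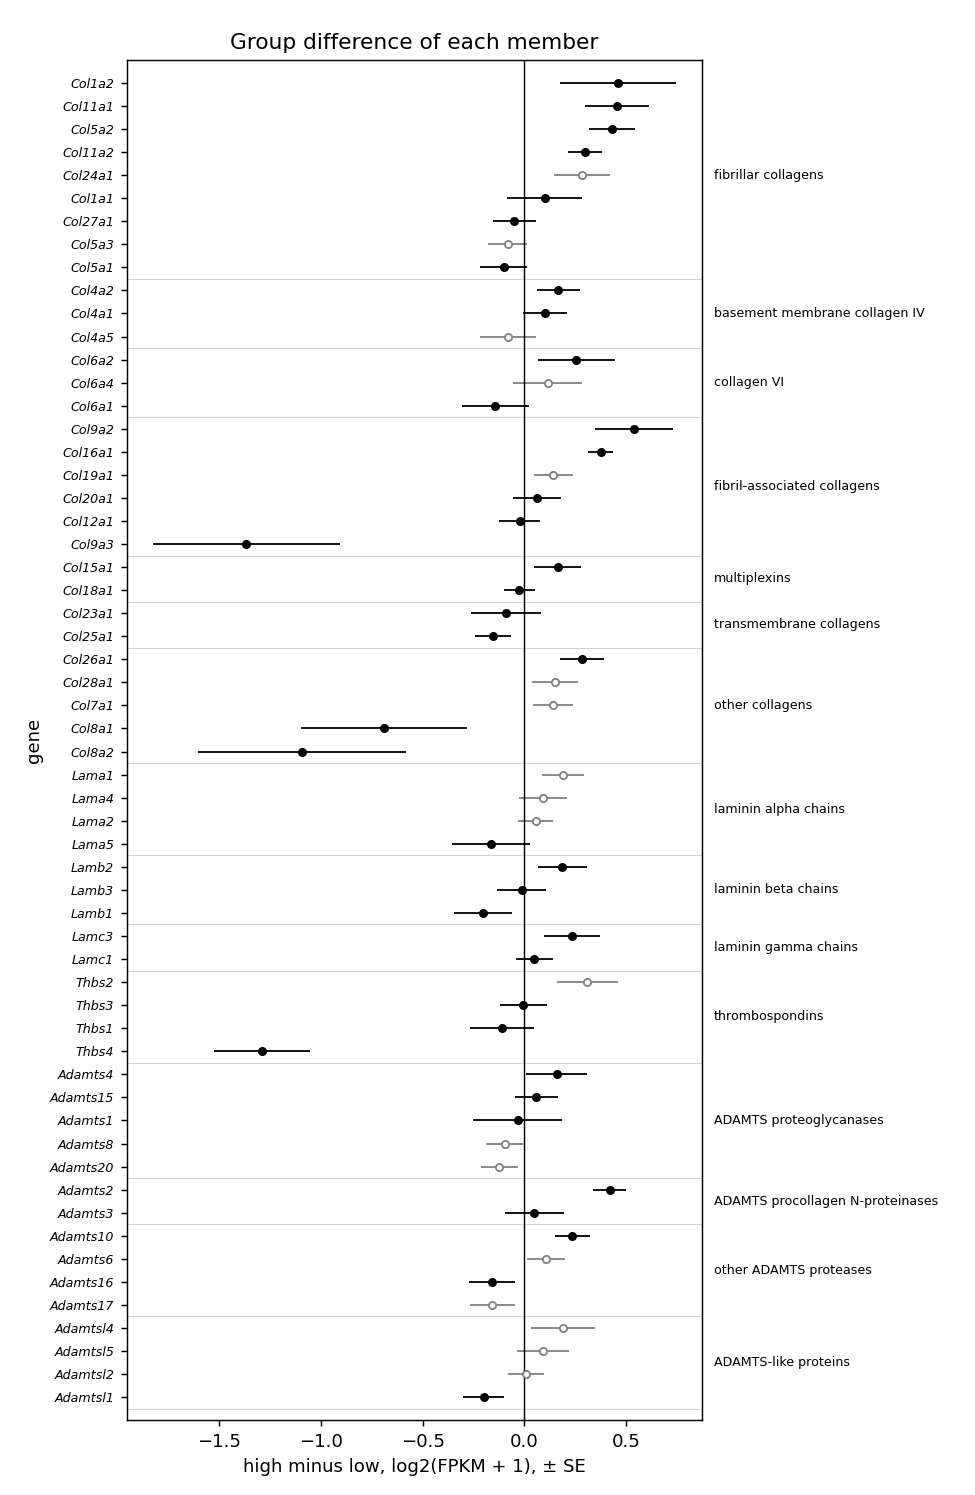
High minus low difference of 58 members on the log2(FPKM + 1) scale (x axis), with its standard error from limma, grouped by role (y axis); filled points are 40 tested members and open grey points the 18 members under the filter. Most points lie within 0.5 of 0, and Thbs4, Col9a3, Col8a1 and Col8a2 reach furthest to the low side.

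The leading members and the pair of collagen VIII chains that varied together across libraries are shown here by the 250 bases before their RefSeq start (GRCm38.p6), read 5′ to 3′ on the strand of the gene. Capitals mark the GC box GGGCGG, the CCAAT box CCAAT and the TATA box TATAAA on either strand, where adjacent matches can overlap. The windows are chr4:130047590-130047839 on the plus strand for Col16a1, chr11:50601835-50602084 on the plus strand for Adamts2, chr13:92794819-92795068 on the minus strand for Thbs4, chr16:57754738-57754987 on the minus strand for Col8a1 and chr4:126286544-126286793 on the plus strand for Col8a2.
Col16a1: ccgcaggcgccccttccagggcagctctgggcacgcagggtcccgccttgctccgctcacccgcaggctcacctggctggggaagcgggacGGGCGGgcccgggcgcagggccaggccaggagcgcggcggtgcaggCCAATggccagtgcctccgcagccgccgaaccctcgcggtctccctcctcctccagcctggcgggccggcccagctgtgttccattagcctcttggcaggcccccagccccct
Adamts2: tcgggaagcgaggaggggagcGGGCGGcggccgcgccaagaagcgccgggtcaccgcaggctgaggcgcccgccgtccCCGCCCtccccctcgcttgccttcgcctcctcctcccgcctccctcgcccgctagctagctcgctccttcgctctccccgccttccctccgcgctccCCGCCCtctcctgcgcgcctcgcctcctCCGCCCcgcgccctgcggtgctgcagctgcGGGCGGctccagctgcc
Thbs4: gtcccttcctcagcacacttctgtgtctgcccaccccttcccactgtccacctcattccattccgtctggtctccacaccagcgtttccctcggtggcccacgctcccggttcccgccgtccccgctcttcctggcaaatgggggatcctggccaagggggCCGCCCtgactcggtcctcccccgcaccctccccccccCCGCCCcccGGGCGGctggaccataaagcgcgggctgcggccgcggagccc
Col8a1: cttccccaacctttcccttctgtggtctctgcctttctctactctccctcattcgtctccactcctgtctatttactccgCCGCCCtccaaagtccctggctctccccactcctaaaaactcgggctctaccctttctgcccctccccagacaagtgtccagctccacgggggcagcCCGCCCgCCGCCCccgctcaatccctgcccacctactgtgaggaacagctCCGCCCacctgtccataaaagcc
Col8a2: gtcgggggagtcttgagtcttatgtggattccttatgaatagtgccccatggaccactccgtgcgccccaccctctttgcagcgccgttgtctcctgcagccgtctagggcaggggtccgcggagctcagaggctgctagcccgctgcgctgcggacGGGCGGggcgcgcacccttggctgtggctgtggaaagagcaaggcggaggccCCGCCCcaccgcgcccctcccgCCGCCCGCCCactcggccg
Col16a1 had 1 GC box and 1 CCAAT box, Adamts2 had 5 GC boxes, Thbs4 had 3, and Col8a1 and Col8a2 had 4 each. These 5 windows held no TATA box in those letters. RefSeq windows were matched for 41 of the 59 members, with 44 windows in all. A GC box stood in 30 of the 44 (68.2%) against 32.7% of 32851 windows of the same length, a CCAAT box in 16 (36.4% against 33.8%) and a TATA box in 4 (9.09% against 12.4%). The 32851 windows belong to 27025 genes and were not limited to the 13170 genes of the deposited table, for which no share was computed. A match is a description of the letters and shows no binding. Transcripts of the members were also richer in G and C than those of all genes, with a median of 55.2% against 50.6%. The group difference of all genes followed GC content, with a Spearman rho of 0.401 across 11924 genes, which are not independent replicates. After each library was corrected for a trend on GC content and length, 34 of the 59 members had the higher mean in the high group. The share of all genes higher was not computed for this fit. The median difference of the members was 0.05 where that of all genes was 0.0073. An unadjusted p under 0.05 by limma was found in 8 tested members (19.5% against 7.73% of all tested genes). Adamts10 and Col26a1 were no longer among them, with corrected differences of 0.21 and 0.24.

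Among the fibril-associated collagens, Col16a1 had the smallest p of all members. It encodes collagen XVI, a matrix protein known from smooth muscle, skin and nerve. Its level was 11.3, 11.7 and 12.1 FPKM over the high group and 8.83, 8.98 and 8.54 over the low group. All 3 high libraries were above all 3 low libraries, with narrow spread in both groups. The means were 11.7 ± 0.37 against 8.79 ± 0.224 (SD, n = 3 each), and the log2 difference was 0.38 (SE 0.061; limma adjusted p = 0.363). It stayed between 0.35 and 0.40 with any library left out, was 0.35 with low 1 and low 3 both left out and 0.35 with the GC and length trend taken out. Col16a1 lies on chromosome 4 from 130047840 to 130099283 in GRCm38. The authors' deposited table gives it a log2 fold change of 0.413 and an unadjusted p of 0.00031, which ranks 8 among 13170 genes.

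The chains of collagen IX, a fibril-associated collagen best known from cartilage, went in opposite directions. Col9a2 had 4.87, 2.36 and 3.56 FPKM in high 1 to 3 and 1.79, 2.44 and 2.04 in low 1 to 3. High 1 and high 3 were above all low libraries, while high 2 lay among them (log2 difference 0.54, SE 0.19; limma adjusted p = 0.575). Without high 1 the difference of Col9a2 was 0.35. Col9a3 had 2.89, 3.00 and 3.06 FPKM over the high group and 9.24, 3.75 and 21.3 over the low group. The high libraries were close together, low 2 lay just above them, and low 1 and low 3 were far higher. Its log2 difference was −1.37 (SE 0.46; limma adjusted p = 0.564), −0.81 without low 3 and −0.25 with low 1 and low 3 both left out. The ratio of Col9a3 to Col9a2 FPKM was 0.594, 1.27 and 0.860 in high 1 to 3 and 5.16, 1.54 and 10.4 in low 1 to 3 (exact 2-sided permutation p = 0.1, the smallest that 3 against 3 can give). An exon of Col9a3 overlaps an exon of Tcfl5 on the opposite strand by 234 bases, and no source used here says whether strand was used in the counting.

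The other fibril-associated collagens were expressed at 0.635 to 1.8 FPKM on average. Col12a1, whose product links fibres in tendon and skin, had 1.36, 1.28 and 1.57 FPKM over the high group and 1.35, 1.66 and 1.32 over the low group. Col20a1 had 1.53, 2.18 and 1.88 against 1.79, 1.46 and 1.94. Both overlapped between the groups. Col19a1, which is made by interneurons in cortex, had 0.631, 0.718 and 0.799 FPKM in high 1 to 3 and 0.657, 0.513 and 0.491 in low 1 to 3, with low 1 above the lowest high library.

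**Figure D2:**
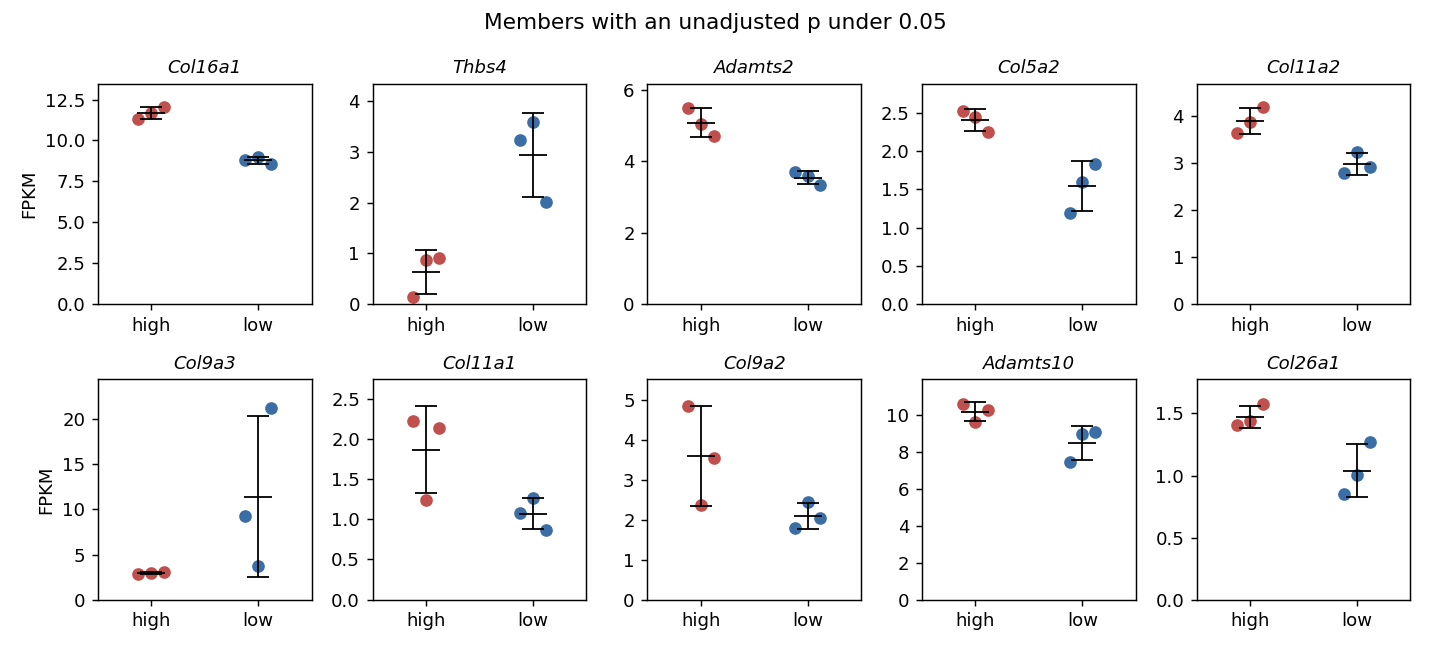
FPKM (y axis, from 0) of the 10 members with an unadjusted limma p under 0.05, by group (x axis); points are libraries and bars the mean ± SD of 3 libraries. The groups are apart in 8 of the panels, overlap in Col11a1 and Col9a2, and are widest in Col9a3, where low libraries run from 3.75 to 21.3.

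Fibrillar collagens, which form the load-bearing fibres, had 6 of 9 members higher in the high group, against 50.2% of all genes, and separate groups in 3, against 14.8%. Their median log2 difference was 0.28. Col5a2, a chain of collagen V that starts and limits the growth of fibres, had 2.53, 2.45 and 2.25 FPKM over the high group and 1.19, 1.60 and 1.84 over the low group. The groups were separate (log2 difference 0.43, SE 0.114; limma adjusted p = 0.536), and the difference was 0.39 with low 1 and low 3 both left out. Its partner Col5a1 overlapped between the groups, with 2.97, 2.11 and 2.84 against 3.12, 2.95 and 2.59 (log2 difference −0.10, SE 0.115; limma adjusted p = 0.813). The ratio of Col5a1 to Col5a2 was therefore below that of every low library in each high library, at 1.10 ± 0.213 against 1.96 ± 0.618 (exact 2-sided permutation p = 0.1). Col5a3, the third chain, had 0.772 to 0.951 FPKM in high 1 to 3 and 0.852 to 1.09 in low 1 to 3.

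Both chains of collagen XI, which builds thin fibres with collagen V, were higher in the high group. Col11a2 had 3.63, 3.87 and 4.18 FPKM over the high group and 2.78, 3.22 and 2.91 over the low group, with separate groups (log2 difference 0.30, SE 0.0838; limma adjusted p = 0.548). Col11a1 had 2.23, 1.24 and 2.13 against 1.08, 1.26 and 0.871. There high 2 lay among the low libraries (log2 difference 0.46, SE 0.157; limma adjusted p = 0.572). Col24a1 had 1.35, 0.649 and 0.875 FPKM in high 1 to 3 and 0.517, 0.640 and 0.617 in low 1 to 3. Its groups were separate by a small margin, and the unfiltered difference of 0.28 was 0.14 without high 1.

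Collagen I, the main fibre of meninges and skin, varied more within the groups than between them. Col1a1 had 3.63, 1.87 and 2.16 FPKM over the high group and 1.82, 2.69 and 2.26 over the low group. Col1a2 had 3.36, 1.00 and 1.67 against 0.705, 1.71 and 0.934. High 1 was the highest library for both chains. The log2 difference of Col1a2 was 0.46 (SE 0.285; limma adjusted p = 0.663), 0.16 without high 1 and 0.07 with low 1 and low 3 both left out. Col27a1, a fibrillar collagen of cartilage, had 0.942, 1.12 and 1.10 FPKM in high 1 to 3 and 1.21, 1.24 and 0.937 in low 1 to 3, which overlapped.

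In the basement membrane, the collagen IV chains Col4a1 and Col4a2 were among the most abundant members, at 11.3 and 21.7 FPKM on average. Col4a1 had 10.4, 13.1 and 11.8 FPKM over the high group and 9.82, 10.4 and 12.5 over the low group, and Col4a2 had 20.4, 26.9 and 21.9 against 18.4, 20.9 and 21.6. High 2 was the highest library for both and low 1 the lowest, and the groups overlapped (log2 differences 0.10, SE 0.108, and 0.17, SE 0.108; limma adjusted p = 0.797 and 0.669). Without high 2 these differences were 0.0261 and 0.0575. The ratio of Col4a2 to Col4a1 ran from 1.73 to 2.05 over the 6 libraries, where that of Col9a3 to Col9a2 ran from 0.594 to 10.4. The genes lie head to head on chromosome 8, Col4a1 on the minus strand up to 11312826 and Col4a2 on the plus strand from 11312805, so that their annotated starts overlap by 22 bases. Col4a5, on the X chromosome, had 0.928, 0.423 and 0.761 FPKM in high 1 to 3 and 0.706, 0.667 and 0.995 in low 1 to 3.

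The multiplexins are basement membrane collagens whose ends can be released as fragments that inhibit vessel growth. Col18a1, the source of endostatin, was the steadiest of them, with 3.96, 3.88 and 4.09 FPKM over the high group and 4.38, 3.99 and 3.83 over the low group. Col15a1 had 1.16, 1.07 and 1.59 against 1.05, 1.06 and 0.949. Its groups were separate, but high 2 exceeded low 2 by little (log2 difference 0.17, SE 0.115; limma adjusted p = 0.697), and the difference was 0.0671 without high 3.

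Laminin chains were higher in 6 of 10 members, against 50.2% of all genes, and no chain had an unadjusted p under 0.05 by limma. Of the alpha chains, Lama1, which is made by leptomeningeal fibroblasts, had 1.01, 0.674 and 0.816 FPKM in high 1 to 3 and 0.575, 0.665 and 0.564 in low 1 to 3. Lama2, the alpha chain of muscle and of the brain basement membrane, had 0.708, 0.660 and 0.674 against 0.581, 0.645 and 0.625. Both were separate between the groups by small margins (unfiltered log2 differences 0.19, SE 0.103, and 0.06, SE 0.0868; limma adjusted p = 0.624 and 0.861). Lama4, the alpha chain of vessel walls, had 0.813 FPKM in high 1 and 0.424 to 0.487 in the other 5 libraries. Lama5, the other vascular alpha chain, had 2.66, 1.83 and 2.21 FPKM over the high group and 2.50, 1.80 and 3.78 over the low group, with low 3 highest.

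The beta chain Lamb2 was the most abundant laminin, with 9.56, 6.89 and 8.57 FPKM in high 1 to 3 and 6.22, 7.61 and 7.67 in low 1 to 3. Lamb1 had 3.81, 5.20 and 3.99 against 4.69, 4.42 and 6.36, and Lamb3, the beta chain of epithelial anchoring laminin, had 1.66, 1.28 and 1.85 against 1.63, 1.84 and 1.38. All 3 overlapped between the groups. The ratio of Lamb2 to Lamb1 was highest in high 1, at 2.51, and lowest in low 3, at 1.21. Lamc1, the gamma chain of most laminins, had 5.85, 5.50 and 4.66 FPKM over the high group and 4.76, 5.36 and 5.20 over the low group. Lamc3 had 2.54, 1.53 and 1.78 against 1.38, 1.42 and 1.65, where low 3 exceeded high 2 (log2 difference 0.24, SE 0.136; limma adjusted p = 0.646). Without high 1 the difference of Lamc3 was 0.0955.

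**Figure D3:**
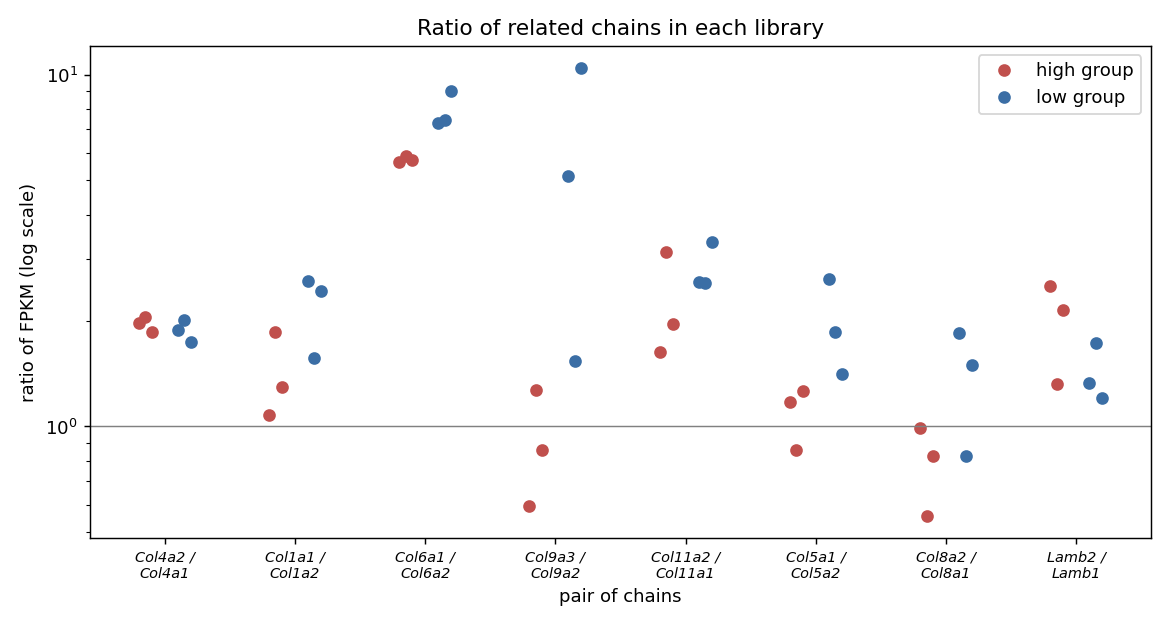
Ratio of the FPKM of related chains in each library (y axis, log scale) for 8 pairs (x axis), with high libraries in red and low libraries in blue; the grey line marks equal FPKM. The ratio of Col4a2 to Col4a1 stays between 1.73 and 2.05, while those of Col6a1 to Col6a2, Col9a3 to Col9a2 and Col5a1 to Col5a2 have all their red points under their blue points.

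Collagen VI forms beaded filaments around cells, and Col6a1 was the most abundant member of all, at 36.3 FPKM on average. It had 41.2, 28.0 and 34.3 FPKM in high 1 to 3 and 39.1, 44.4 and 30.7 in low 1 to 3, which overlapped (log2 difference −0.14, SE 0.163; limma adjusted p = 0.813). Col6a2, its neighbour on chromosome 10, had 7.29, 4.76 and 6.003 against 5.37, 5.97 and 3.42 (log2 difference 0.26, SE 0.189; limma adjusted p = 0.710). The difference of Col6a2 was 0.0589 without low 3 and 0.13 without high 1. Although each chain overlapped, their ratio did not. Col6a1 exceeded Col6a2 by 5.65, 5.87 and 5.71 times in the high group and by 7.28, 7.44 and 8.97 times in the low group, or 5.74 ± 0.115 against 7.90 ± 0.932 (exact 2-sided permutation p = 0.1). In all, 9 ratios were compared with the exact permutation test. The 4 with separate groups, at an exact permutation p = 0.1, had a Benjamini-Hochberg adjusted p of 0.225. Col9a3, Col5a2 and Thbs4 had separate groups by themselves, so the ratios that hold them repeat those results in part. Ratios of other gene pairs were not computed, so the count of separate ratios has no background. Col6a4 had 0.682, 1.31 and 0.995 FPKM in high 1 to 3 and 0.488, 1.17 and 0.888 in low 1 to 3.

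The transmembrane collagens Col23a1 and Col25a1 were expressed at 8.01 and 5.12 FPKM on average. Col25a1 is a neuronal collagen found with amyloid plaques in Alzheimer disease and needed by motor axons. It had 4.62, 4.34 and 5.47 FPKM over the high group and 5.48, 5.40 and 5.43 over the low group. The low libraries were nearly equal, and high 3 lay among them (log2 difference −0.15, SE 0.0864; limma adjusted p = 0.638). Col23a1 had 10.1, 5.75 and 7.54 against 9.27, 8.11 and 7.25, with both the highest and the lowest value in the high group.

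Of the remaining collagens, Col26a1 had 1.41, 1.44 and 1.58 FPKM in high 1 to 3 and 0.848, 1.00 and 1.27 in low 1 to 3. The groups were separate (log2 difference 0.28, SE 0.109; limma adjusted p = 0.582). Col8a1 and Col8a2, the chains of the network-forming collagen VIII, were dominated by low 3. Col8a1 had 0.947, 0.484 and 0.456 FPKM over the high group and 1.01, 0.593 and 4.47 over the low group, and Col8a2 had 0.937, 0.270 and 0.375 against 1.87, 0.487 and 6.68. In both genes low 3 was highest, followed by low 1, high 1 and low 2. Their log2 differences of −0.69 (SE 0.408) and −1.09 (SE 0.512; limma adjusted p = 0.655 and 0.599) were 0.02 and 0.01 with low 1 and low 3 both left out. Col7a1, the anchoring fibril of skin, had 0.879 to 1.20 FPKM in high 1 to 3 and 0.806 to 0.958 in low 1 to 3, and Col28a1 had 0.514 to 0.845 against 0.390 to 0.571.

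Thbs4 had the largest contrast among the thrombospondins and was lower in the high group. It encodes a pentameric thrombospondin of muscle, tendon and nervous system. Its level was 0.128, 0.864 and 0.906 FPKM over the high group and 3.24, 3.58 and 2.01 over the low group. No values overlapped, high 1 was far below the other libraries, and the means were 0.632 ± 0.437 against 2.94 ± 0.825 (SD, n = 3 each). The log2 difference was −1.29 (SE 0.234; limma adjusted p = 0.471), and −1.04 without high 1. It was −1.47 without low 3 and −1.53 with low 1 and low 3 both left out. Thbs4 lies on chromosome 13 from 92751590 to 92794818 in GRCm38.

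Thbs3, the related pentameric gene, was the most abundant thrombospondin, with overlapping groups at 10.1, 12.8 and 14.3 FPKM in high 1 to 3 and 12.01, 13.1 and 11.9 in low 1 to 3. An exon of Thbs3 overlaps Mtx1 on the opposite strand by 179 bases. The ratio of Thbs3 to Thbs4 ran from 14.9 to 79.0 in the high group and from 3.67 to 5.91 in the low group (exact 2-sided permutation p = 0.1). Thbs1 and Thbs2 are the trimeric forms. Thbs1 had 1.44, 0.745 and 0.757 FPKM in high 1 to 3 and 1.07, 0.914 and 1.37 in low 1 to 3. Thbs2 had 1.12, 0.418 and 0.809 against 0.431, 0.483 and 0.347, where high 2 lay among the low libraries (unfiltered log2 difference 0.31, SE 0.151; limma adjusted p = 0.604).

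Of 11 tested genes for thrombospondin receptors and partners, 3 were higher and 8 were lower in the high group, and 0 passed. Of all tested genes, 50.1% were higher. Cacna2d1, which encodes the calcium channel subunit that serves as a neuronal thrombospondin receptor, had 9.97, 7.19 and 9.997 FPKM over the high group and 11.9, 12.2 and 12.5 over the low group. Its groups were separate (log2 difference −0.41, SE 0.115; limma adjusted p = 0.548). Nlgn1, the postsynaptic adhesion protein that binds thrombospondin, had 2.80, 2.84 and 2.98 FPKM against 3.87, 3.85 and 3.31 (log2 difference −0.27, SE 0.082; limma adjusted p = 0.553). Vldlr, a lipoprotein receptor, had 5.83 ± 0.277 FPKM against 6.49 ± 0.169 (SD, n = 3 each).

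In the ADAMTS group, Adamts2 had the smallest p. Its product removes the N-terminal propeptide of fibrillar procollagens. It had 5.50, 5.03 and 4.70 FPKM in high 1 to 3 and 3.69, 3.59 and 3.33 in low 1 to 3. Every high library was above every low library, and the means were 5.08 ± 0.405 against 3.54 ± 0.186 (SD, n = 3 each). The log2 difference was 0.42 (SE 0.0805; limma adjusted p = 0.471) and stayed between 0.37 and 0.47 with any library left out, with 0.40 when low 1 and low 3 were both left out. Adamts2 lies on chromosome 11 from 50602084 to 50807573 in GRCm38. Adamts3, a procollagen protease that also cuts reelin and the lymphatic factor VEGF-C, had 1.30, 0.756 and 1.18 FPKM over the high group and 1.10, 1.19 and 0.731 over the low group, which overlapped.

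Adamts10, an enzyme that binds fibrillin, had 10.6, 9.59 and 10.3 FPKM in high 1 to 3 and 7.44, 8.95 and 9.09 in low 1 to 3. The groups were separate (log2 difference 0.24, SE 0.0867; limma adjusted p = 0.578), with a difference of 0.15 without low 1. Adamts6, its close relative, had 0.764, 0.621 and 0.789 FPKM against 0.599, 0.633 and 0.565. Adamts16 had 0.882, 1.32 and 1.02 FPKM over the high group and 1.38, 1.39 and 1.16 over the low group, and Adamts17 had 0.695, 1.02 and 0.584 against 0.949, 0.960 and 0.965. In both, high 1 and high 3 were below all low libraries, while high 2 stood among them in Adamts16 and above them in Adamts17.

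The proteoglycanases of the group cut aggrecan, versican and brevican. Adamts4 had 3.67, 2.84 and 2.29 FPKM in high 1 to 3 and 2.28, 2.19 and 3.06 in low 1 to 3, and Adamts1 had 2.72, 1.55 and 1.99 against 1.56, 1.73 and 3.34. Adamts15 had 1.30, 1.21 and 1.17 against 1.20, 1.31 and 0.915. These 3 overlapped between the groups. Adamts8 and Adamts20 lay under the filter and were lower in every high library, at 0.744, 0.810 and 0.618 against 0.823, 0.887 and 0.812 FPKM, and at 0.600, 0.561 and 0.605 against 0.819, 0.629 and 0.743 FPKM. Their differences of −0.10 (SE 0.0916) and −0.12 (SE 0.092) were close to their errors. Adamtsl1, an ADAMTS-like protein, was also lower in every high library, at 1.39, 1.59 and 1.32 FPKM against 2.05, 1.62 and 1.72 (log2 difference −0.20, SE 0.1; limma adjusted p = 0.605). Adamtsl4, which binds fibrillin, had 1.60, 0.739 and 0.987 FPKM against 0.643, 0.895 and 0.945. Adamtsl5 had 0.846 FPKM in high 1 and 0.357 to 0.535 elsewhere, and Adamtsl2 kept within 0.780 to 0.948.

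**Figure D4:**
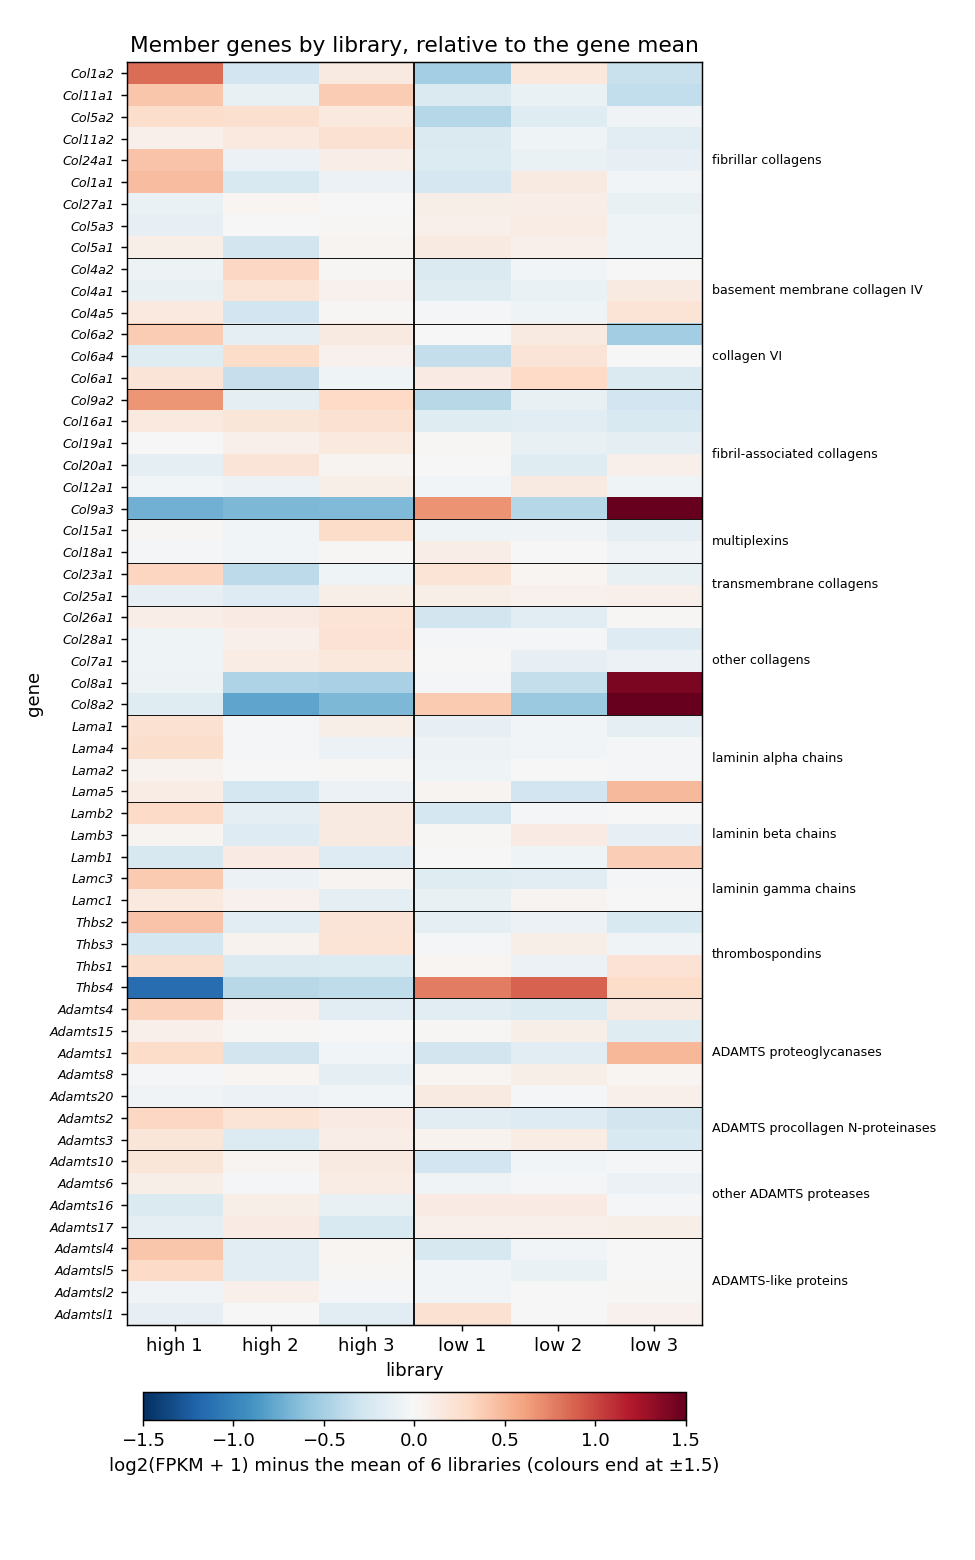
The level of 58 members (y axis, grouped by role) in each library (x axis), as log2(FPKM + 1) minus the mean of the gene over 6 libraries, with red above and blue below that mean and colours ending at ±1.5. High 1 is red in many fibrillar collagens and laminins, low 3 is dark red in Col9a3, Col8a1 and Col8a2, and Thbs4 is blue in all high libraries.

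High 1 was the highest library in 22 of 59 members, or 37.3%, against 16.6% of all genes. These were 8 collagens, 6 laminins, 6 genes of the ADAMTS group and 2 thrombospondins, among them Col1a1, Col1a2, Col24a1, Lama1, Lama4, Thbs2 and Adamtsl4. High 1 is also the library with the highest sum of leptomeningeal markers, 165.6 FPKM, and of endothelial and mural markers, 173 and 121.6 FPKM, where the other libraries had 139.6 to 156.1 and 63.6 to 87.3. Slc6a13, a transporter of the leptomeninges, had 11.8 FPKM in high 1, 2.43 and 5.86 in high 2 and high 3, and 0.829, 3.92 and 0.683 in the low libraries. The part of these tissues in the level of the members was not tested. Without high 1, the differences of Col1a2, Thbs2, Lama1 and Adamtsl4 went from 0.46, 0.31, 0.19 and 0.19 to 0.16, 0.17, 0.12 and 0.03. High 1 is the highest library of each of these genes, so leaving it out had to lower their differences. The sizes of the drops are therefore a description and do not show where the transcripts came from. The differences of Col16a1, Adamts2 and Col5a2 were 0.40, 0.37 and 0.41 without high 1. High 1 is the highest library of Adamts2 and Col5a2 too, but the lowest of the high group for Col16a1.

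Low 3 was the highest library in 7 members, Col9a3, Col8a1, Col8a2, Col4a5, Lama5, Lamb1 and Adamts1. This is 11.9% of the members, fewer than the 17.1% of all genes. In Col9a3, Col8a1 and Col8a2 low 1 came next, in the order of the choroid plexus sums of 4620 and 1476 FPKM. The sizes matched less well than the order. Col8a1 had 1.01 FPKM in low 1 and 0.947 in high 1, and Col8a2 had 1.87 and 0.937, where the choroid plexus sums were 1476 and 103. In Lama5 high 1 came next after low 3, at 2.66 FPKM against 2.50 in low 1. Ttr, which encodes transthyretin and is the most abundant choroid plexus marker, had 4016 FPKM in low 3, 1290 in low 1, and 33.5 to 102 in the other 4 libraries. The part of choroid plexus in these members was not tested. With low 1 and low 3 both left out, the difference of Lama5 turned from −0.17 to 0.20 and that of Adamts1 from −0.03 to 0.16. Thbs4 had 3.58 FPKM in low 2 and 2.01 in low 3. In those libraries the choroid plexus markers summed to 106 and 4620 FPKM and the ependymal markers to 21.8 and 43.7. Values of Thbs4 and of Col9a3 were lower in every high library than in any low library, as the ependymal sums were. The part of choroid plexus or ependymal tissue in Thbs4, and that of ependymal tissue in Col9a3, was not tested.

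**Figure D5:**
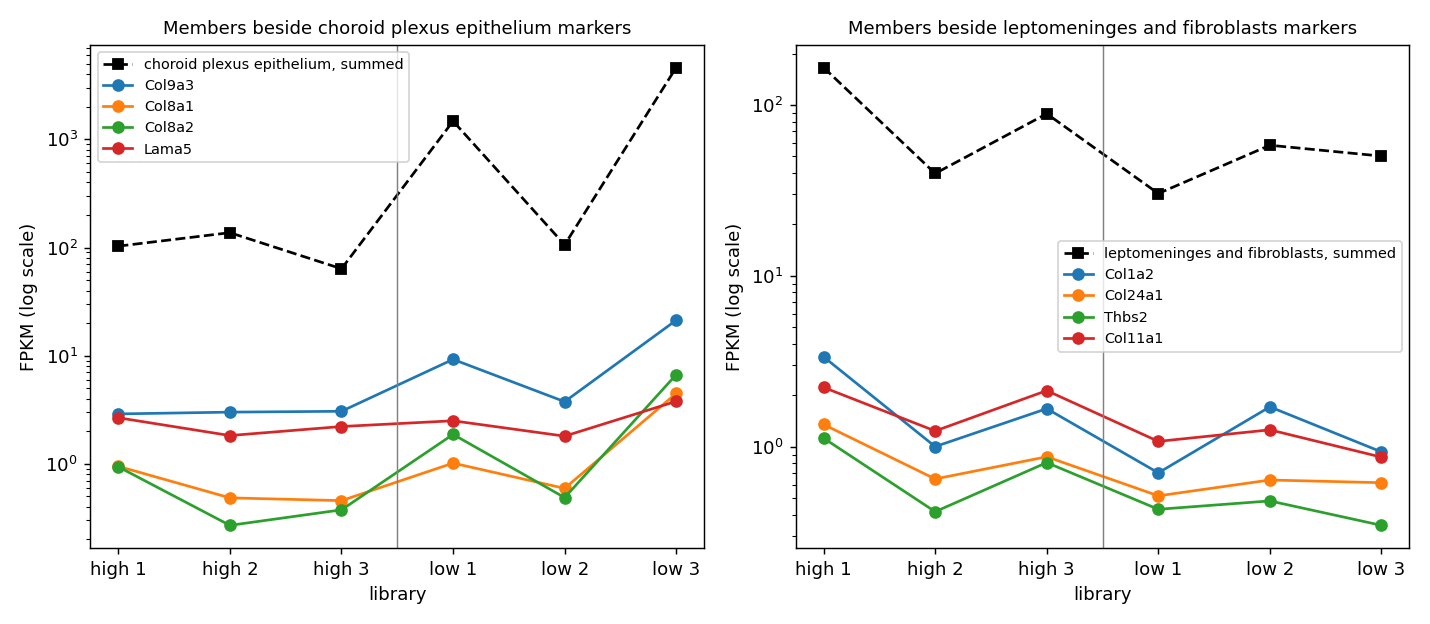
FPKM in each library (log scale) of 4 members beside the summed markers of choroid plexus epithelium (left) and of 4 members beside those of leptomeninges and fibroblasts (right), with high libraries to the left of the grey line in each panel. Col9a3, Col8a1 and Col8a2 peak in low 3 and then low 1, as the choroid plexus markers do, though Col8a1 is nearly as high in high 1 as in low 1. Lama5 peaks in low 3 and then high 1. Col1a2, Col24a1, Thbs2 and Col11a1 peak in high 1 with the leptomeningeal markers.

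Genes that fold, anchor, bind or cut these proteins were examined from lists that the name rule did not use, and 0 passed in any of the 6 lists. Among enzymes and chaperones that fold and crosslink collagen, 14 of 21 tested genes were higher and 7 lower, with a median log2 difference of 0.04. Of all tested genes, 50.1% were higher. Sparc, a collagen-binding protein made by astrocytes and vessels, had 133, 147.7 and 202.5 FPKM over the high group and 122.7, 130.5 and 120.7 over the low group, with separate groups (log2 difference 0.35, SE 0.142; limma adjusted p = 0.583). Crtap, a subunit of the prolyl 3-hydroxylase complex, had 4.75, 4.84 and 5.01 FPKM against 3.91, 3.51 and 4.73. Colgalt1, which adds galactose to collagen, had 15.3, 17.3 and 16.2 FPKM against 17.9, 18.1 and 18.1. Partners in the basement membrane had 9 of 20 tested genes higher and 11 lower, against 50.1% of all tested genes higher. Fn1, which encodes fibronectin, had 12.6, 6.84 and 8.12 FPKM in high 1 to 3 and 5.61, 6.85 and 5.45 in low 1 to 3, again with high 1 highest. Efemp1, a fibulin of the meninges, had 9.98, 2.92 and 4.77 FPKM against 2.47, 3.85 and 2.63. Sgcb, a subunit of the complex that ties the cell to laminin through dystroglycan, had 13.01, 12.2 and 14.1 FPKM against 14.4, 13.7 and 15.5.

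Receptors for collagen and laminin were higher in 9 of 11 tested genes, against 50.1% of all tested genes. Their median log2 difference was 0.14 where that of all tested genes was 0.00018. Itga10, an integrin alpha subunit that binds collagen, had 2.24, 2.24 and 2.47 FPKM over the high group and 1.67, 1.92 and 1.98 over the low group. Markers of oligodendrocytes were higher in 14 of 15 genes, with sums of 469, 393.2 and 451.7 FPKM against 359.8, 389 and 398, which overlapped. Ddr1, a receptor kinase for collagen found on oligodendrocytes among other cells, was lower in the high group. It had 12.5, 12.3 and 12.5 FPKM in high 1 to 3 and 15.4, 13.1 and 16.2 in low 1 to 3 (log2 difference −0.24, SE 0.0832; limma adjusted p = 0.575). Low 3 was its highest library and low 1 the next, as in the choroid plexus sums. The part of oligodendrocytes or choroid plexus in its level was not tested. Adgrg1, an adhesion receptor for collagen III, had 21.6, 20.7 and 24.4 FPKM against 20.2, 19.8 and 17.4. Itga10, Ddr1 and Adgrg1 had separate groups. Substrates and inhibitors of ADAMTS proteases were higher in 11 of 13 tested genes, against 50.1% of all tested genes, with a median of 0.10. Of the 13, 0 had an unadjusted p under 0.05 by limma. Bgn (biglycan) and Vwf (von Willebrand factor) were highest in high 1, at 5.93 and 4.10 FPKM, where the other libraries had 2.22 to 3.15 and 0.959 to 1.76. Bgn is also among the leptomeningeal and fibroblast markers used here, and Vwf among the endothelial markers. Timp4, a metalloprotease inhibitor, had 6.08 ± 0.779 FPKM against 5.56 ± 0.174 (SD, n = 3 each). Other matrix proteases were divided, with 7 of 13 higher and 6 lower, against 50.1% of all tested genes higher. Mmp17, a membrane-anchored metalloprotease, was the most abundant of those named. It had 37.6, 40.3 and 31.0 FPKM over the high group and 32.4, 30.0 and 34.9 over the low group. Adam9 had 12.3, 10.4 and 10.1 FPKM against 12.04, 12.2 and 12.9, and Mmp2, a gelatinase, had 1.12, 1.03 and 1.36 against 1.54, 1.05 and 2.33.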

How the data were processed

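The tools named for reads, alignment and assembly are StringTie, HISAT2 and fastp, with build GRCm38, per the submitters' processing notes. Their versions, and whether counting used strand, are not given in the sources used here. For each gene the authors deposited FPKM with 1 column per library, plus a log2 fold change and a p-value. The deposited log2 fold change equals log2 of the ratio of group means in all 13170 genes, and the deposited p-value equals that of an equal-variance test on untransformed FPKM in all 13170 (tolerance 1e-06), without adjustment. No deposited value is 0 and the lowest mean is 0.50 FPKM.

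FPKM carry no counts, so limma 3.58.1 in R 4.3.3 was fitted to log2(FPKM + 1) of the 12026 genes with a mean of at least 1 FPKM, with a variance trend, 2-sided tests and Benjamini-Hochberg adjustment at 0.05. The script was tested on simulated data. Single ratios were compared with exact 2-sided permutation tests. Relative depth is the most common ratio between a library and high 1 over 1428 genes under 1.5 FPKM in each. Only 28 to 37 of these genes held that ratio, against 10 to 14 at the next most common one, so the estimate is rough. Gene positions, transcript GC content and length are from GENCODE M21 on GRCm38, which held all 59 members. An exon on the opposite strand overlaps 12 members: Adamts4, Adamts8, Col4a1, Col4a2, Col5a1, Col6a4, Col9a3, Col15a1, Lama2, Lamc3, Thbs1 and Thbs3. Alternatives were other pseudocounts (0.1 and 0.5), filters and scalings, a replicate block, array weights, robust fitting, no variance trend, a spline trend on GC content and length removed (5 degrees of freedom), and each library left out. The fit without low 1 and low 3, whose lone low library is assumed to vary like the high ones, was added after seeing the data. Members given in full are those with an unadjusted p under 0.05 and, in each role, the 2 with the smallest p and the 2 with the highest mean; the other members are given by library or range, and each related list names its 3 genes with the smallest p. Of the 59 members, 1 is counted in the totals but is not reported here by name or drawn. The members and lists were chosen with earlier results of these data known. Other steps used scipy 1.17.1, pandas 2.3.3, numpy 2.4.6 and matplotlib 3.10.9 in Python 3.11.15.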

Additional observations from a re-analysis of the deposited data

How the results depend on the processing

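No alternative called any gene at an adjusted p under 0.05, so the count of 0 members held in every setting run. The smallest limma adjusted p was 0.0766 (without high 2). At a mean of at least 5 FPKM, 3 of 12 members had an unadjusted p under 0.05 by limma (25% against 8.48% of all genes). The count was 10 of 59 without the filter (16.9% against 8.39%) and 15 of 41 with array weights (36.6% against 13%). Leaving aside the fit without low 1 and low 3, the lowest share was 14.6%, without high 1 (against 7.09%). The 21 of 41 tested members that were higher became 34 of 59 without the filter and 7 of 12 at a mean of at least 5 FPKM. The 10 tested members with separate groups became 3 at a mean of at least 5 FPKM and 10 to 17 with each library left out. The count was 19 with low 1 and low 3 both left out, where only 1 low library remains. The share of all genes with separate groups was not computed for these fits. With fewer libraries the groups separate more easily in any gene, so the rise to 17 and 19 says nothing about the members. Of 641 differences of 37 named members under alternatives, 619 kept their direction and 22 did not; the cause was not tested. With low 1 and low 3 left out, Adamts1 was 0.16, Adamts3 −0.0821, Col6a2 −0.0059, Col8a1 0.0196, Col8a2 0.0134, Lama5 0.20 and Lamc1 −0.0107. With array weights Adamts1 was 0.17 and Col23a1 0.0282, and with quantile scaling Col18a1 was 0.00093 and Thbs3 0.0069. With each library left out, the ranges were −0.18 to 0.21 for Adamts1, −0.0535 to 0.17 for Adamts3, −0.0571 to 0.0201 for Col18a1, −0.27 to 0.0884 for Col23a1, −0.17 to 0.0103 for Col5a1, −0.35 to 0.0385 for Lama5, −0.0093 to 0.13 for Lamc1 and −0.11 to 0.13 for Thbs3. With the replicate block 0 members passed, 21 were higher and 10 had separate groups. The smallest limma adjusted p over all genes went from 0.363 to 0.757. The members at an unadjusted p under 0.05 by limma were 10 in both fits, with Col8a2 in place of Adamts10 under the block. Same-numbered libraries deviated with correlations of −0.0939, −0.206 and −0.156, and the other pairs of a high and a low library with −0.0294 to 0.183. With 3 libraries a group these cannot tell whether the numbers pair libraries. Depth is unknown, and 3 libraries a group limit the precision: the median standard error of a difference was 0.09.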
